A study of Rattus norvegicus with 10 samples.

Results

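H19, Igf2 and 6 other imprinted genes (Igf2r, Grb10, Cdkn1c, Plagl1, Dlk1 and Peg3) were followed across 10 rat mammary tumours. Imprinted genes are expressed mainly from one parental copy. The 8 genes were chosen by name, with H19 included because it was already known to be among the most variable genes of these arrays, so its spread is described here and not tested. Probes were assigned through their transcript identifiers and RefSeq. By this rule 6 of the 8 genes had at least 1 probe, giving 9 of the 41012 probes of the array, while Grb10 and Peg3 were matched by no probe and have no values here. A gene was tested when 5 or more of the 10 arrays had its probe marked as well above background. That left 4 of the 8 genes (H19, Igf2, Igf2r and Cdkn1c) among 16779 tested genes. Of these 16779, 8270 had a gene symbol, and each other transcript identifier was counted as a gene of its own.

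The tumours were tubular or papillary mammary tumours of female Sprague-Dawley offspring, taken at 110 days of age. In the WD group (5 tumours) the dams ate a Western-style diet, rich in fat and poor in fibre and trace elements, during gestation (days 12 to 20) and lactation (postnatal days 1 to 21). In the CD group (5 tumours) the dams ate a control diet over the same days. All offspring of both groups ate the control diet after weaning, and at 3 weeks of age all were injected once into the peritoneum with N-methyl-N-nitrosourea (MNU), a DNA-alkylating carcinogen, at 50 mg/kg. Every sample analysed here is thus a tumour of an MNU-treated animal. Dam and litter are not given for any tumour, so every p-value measures the spread between tumours only.

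Total RNA was measured on 1-colour Agilent whole rat genome arrays, 1 array per tumour. Levels are log2 intensities relative to the 75th percentile of the same array, so that 0 is the 75th percentile, and every difference is WD minus CD. The 75th percentile of the raw intensity lay between 72.8 and 170 on the WD arrays and between 85.0 and 226 on the CD arrays, and WD3 was the dimmest array. There were 3 slides, all with WD and CD tumours on them. Each was scanned once, so a slide and its scan cannot be told apart. All 10 luminal epithelial markers had a probe and 9 were measured, with a mean level of 3.41 to 4.05 in WD tumours and 3.89 to 4.52 in CD tumours. None of 6 skeletal muscle markers was measured. Of 8 adipocyte markers, Lpl and Cfd were measured, on all 10 arrays, and the other 6, among them Adipoq, Plin1 and Lep, were not.

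In rodents H19 and Igf2 lie side by side in one imprinted domain. H19 is a non-coding RNA expressed from the maternal copy, and Igf2, a fetal growth factor, is expressed from the paternal copy. A control region bound by the protein Ctcf gives each parental chromosome its own pattern of access to enhancers that both genes share. Igf2 signals through the type 1 IGF receptor and the insulin receptor, while Igf2r takes it up and sends it to lysosomes. Cdkn1c (p57) is an inhibitor of cyclin-dependent kinases, Plagl1 is a zinc finger transcription factor, Dlk1 is a Notch-related membrane protein, Grb10 is an adaptor that restrains insulin and IGF receptor signalling, and Peg3 is a zinc finger protein.

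Both genes of the domain carry a microRNA, shown here because it lies within the gene whose level is reported below. In the RefSeq annotation of the GRCr8 assembly Mir675 lies within H19, Mir483 lies within Igf2, and no annotated gene lies between H19 and Igf2. The mature sequences follow, 5′ to 3′, with the seed (bases 2 to 8) in capitals. The first pair lies at chr1:207161766-207161786 and chr1:207161800-207161821 and the second at chr1:207247865-207247886 and chr1:207247903-207247924, all on the minus strand of GRCr8.
rno-miR-675-3p: uGUAUGCCcuaaccgcucagu
rno-miR-675-5p: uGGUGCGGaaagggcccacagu
rno-miR-483-3p: cACUCCUCcccucccgucuugu
rno-miR-483-5p: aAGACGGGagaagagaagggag
Each of these 4 seeds was found in 1 of the 693 mature rat microRNA names of the table, so none was shared. The array values below are those of the host transcripts and say nothing of the mature microRNAs, which were not measured.

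H19 spanned the widest range of the measured members. In WD tumours 1 to 5 the levels were 2.09, -0.56, -3.88, 4.31 and 1.11, against 0.16, 0.32, 2.09, 0.31 and -1.35 in CD tumours 1 to 5. WD4 was the highest tumour of all, WD3 the lowest, and the CD tumours lay inside the range of the WD tumours. The WD3 spot was not well above background, so its level is a reading near background. WD4 was 78.9-fold higher than the lowest level that counted as well above background on the WD3 array, called the bound of WD3 here. It is not a strict limit, since a Cdkn1c probe at -1.80 on that array was also not well above background. WD4 was 50.6-fold higher than CD5, the lowest tumour in which H19 was measured. The SD over all 10 tumours was 2.21, which ranked 15 of 16779 genes, against a median of 0.37 over all tested genes. With WD3 set to its bound the SD was 1.85 and the rank was 44. Without WD3 the rank was 70, and without WD4 it was 32.

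The H19 difference by maternal diet was smaller than the spread between tumours. H19 averaged 0.62 ± 3.07 in WD tumours and 0.31 ± 1.22 in CD tumours (SD, n = 5 each), a difference of 0.31 with a 95% interval of -2.43 to 3.05 (limma, adjusted p = 0.927). In bulk tumour RNA fewer expressing cells and less RNA per cell cannot be told apart, here and for every gene below. The interval reaches beyond a 4-fold change in both directions. Leaving out WD1, WD4 or CD5 turned the sign of the difference, giving -0.06, -0.61 and -0.10. The difference was 1.43 without WD3 and 0.69 with WD3 at its bound. Within slides 1, 2 and 3 it was 0.45, -0.15 and 0.87.

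Igf2, the growth factor of the domain, was well above background in all 10 tumours. Its levels were 0.97, 0.31, 0.48, 4.19 and 3.14 in WD tumours 1 to 5, against -0.06, -1.24, 2.30, 1.04 and -1.26 in CD tumours 1 to 5. WD4 and WD5 stood highest, CD2 and CD5 lowest, and the groups overlapped, with CD3 and CD4 above 3 of the WD tumours. The highest tumour was 43.7-fold above the lowest, and the SD of 1.78 ranked 54 of the tested genes and 103 without WD4.

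Igf2 averaged 1.82 ± 1.74 in WD tumours and 0.16 ± 1.53 in CD tumours (SD, n = 5 each). The difference of 1.66 (SE 0.88), or 3.17-fold higher in WD, did not pass the test (limma, unadjusted p = 0.0846, adjusted p = 0.385). Its 95% interval ran from -0.27 to 3.59, and 5 of 5 WD tumours lay above the CD mean. Within slides 1, 2 and 3 the difference was 1.88, 1.81 and 2.65, and with slide as a block it was 2.07 (limma, adjusted p = 0.251). With array brightness as a covariate it was 1.30 (limma, adjusted p = 0.890). Leaving out 1 tumour at a time gave 1.07 to 2.20, and the lowest of these values came without WD4.

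The RefSeq table holds a pair of promoters for Igf2, printed here because Igf2 carried the largest WD minus CD difference among the measured members. Each window runs from 250 bases before to 50 bases after an annotated start on the minus strand of GRCr8 chromosome 1. The capitals mark the GC box, GGGCGG on either strand.
Igf2 promoter 1, chr1:207253931-207254230: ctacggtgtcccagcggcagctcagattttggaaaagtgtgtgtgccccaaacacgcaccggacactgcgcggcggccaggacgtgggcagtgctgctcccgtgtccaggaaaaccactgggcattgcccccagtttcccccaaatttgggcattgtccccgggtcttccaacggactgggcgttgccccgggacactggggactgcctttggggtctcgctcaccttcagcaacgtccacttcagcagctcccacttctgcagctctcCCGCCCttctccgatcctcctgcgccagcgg
Igf2 promoter 2, chr1:207250426-207250725: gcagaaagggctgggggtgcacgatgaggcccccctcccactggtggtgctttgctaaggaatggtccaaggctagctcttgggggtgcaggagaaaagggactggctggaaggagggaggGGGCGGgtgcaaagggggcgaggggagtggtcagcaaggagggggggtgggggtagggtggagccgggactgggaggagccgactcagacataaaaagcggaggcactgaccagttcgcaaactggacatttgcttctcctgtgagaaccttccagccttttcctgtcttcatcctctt
Each window held 1 GC box, a motif present in 33.06% of the 33469 promoter windows of the same length. The first held 19 CpG dinucleotides and the second 7, against a median of 7 over all windows. Neither held the letters TATAAA (14.22% of windows) or the binding core described for PLAGL1 (0.07% of windows) on either strand. A match describes the letters only. The array probe does not tell transcripts from these starts apart.

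Igf2r is the receptor that clears Igf2. Its levels were 5.11, 4.64, 4.99, 5.63 and 5.08 in WD tumours 1 to 5, against 5.17, 4.36, 5.16, 5.20 and 4.59 in CD tumours 1 to 5. WD4 was again the highest tumour and CD2 the lowest, and the groups overlapped. It averaged 5.09 ± 0.36 in WD tumours and 4.90 ± 0.39 in CD tumours (SD, n = 5 each), a difference of 0.19 with a 95% interval of -0.31 to 0.69 (limma, adjusted p = 0.706). Within slides 1, 2 and 3 the difference was 0.51, 0.44 and -0.11. Its SD of 0.37 ranked 8353 among the tested genes. That rank moved to 968 with the normexp background correction and to 3320 with the deposited series matrix. With each array's median in place of its 75th percentile, which lowers the median difference of all genes to -0.24, the Igf2r difference was -0.058.

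Cdkn1c, the cell cycle inhibitor, was read by 4 probes of 2 transcripts. The probe with the highest mean level gave 0.29, 1.03, -1.27, 1.73 and 0.71 in WD tumours 1 to 5, against 0.59, 1.13, 0.95, -0.03 and 1.78 in CD tumours 1 to 5. WD3 was the lowest tumour and CD5 and WD4 the highest, with the groups overlapping. It averaged 0.50 ± 1.12 in WD tumours and 0.88 ± 0.67 in CD tumours (SD, n = 5 each), a difference of -0.39 with a 95% interval of -1.49 to 0.72 (limma, adjusted p = 0.737). Within slides 1, 2 and 3 the difference was -0.47, -1.13 and 0.43. Its SD of 0.89 ranked 981 among the tested genes, and the rank was 2779 without WD3 and 3524 with normexp.

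The 4 Cdkn1c probes followed each other, with Pearson r between 0.89 and 0.98 over the 10 tumours. All 4 were lowest in WD3, where the other 3 probes were not well above background. The differences of those 3 probes were -0.44, -0.40 and -0.91, and none passed the test (limma, adjusted p of 0.459 to 0.660). With WD3 at its bound they were -0.44, -0.26 and -0.51, the first unchanged because its WD3 reading lay above the bound. Without WD3 the difference of the first probe was 0.057, so its sign rested on that tumour.

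Plagl1 and Dlk1 were not tested, because too few arrays were well above background. Plagl1 was marked well above background on 0 of 5 WD arrays and on 4 of 5 CD arrays (all but CD3). Its levels were -2.68, -2.05, -3.87, -3.97 and -2.80 on the WD arrays, against -1.44, -1.23, -4.45, -2.05 and -1.66 on the CD arrays. The WD levels and that of CD3 are readings near background and have no order among themselves. No fold is given for Plagl1, since CD3 and all WD readings were not above background. The 4 arrays that showed it were also the brightest, with a 75th percentile of 188 to 226, against 72.8 to 170 on the other 6 arrays, and the part of array brightness in this pattern was not tested. The Dlk1 probe passed the background mark on 0 of the 10 arrays, so no fold is given.

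**Figure D1:**
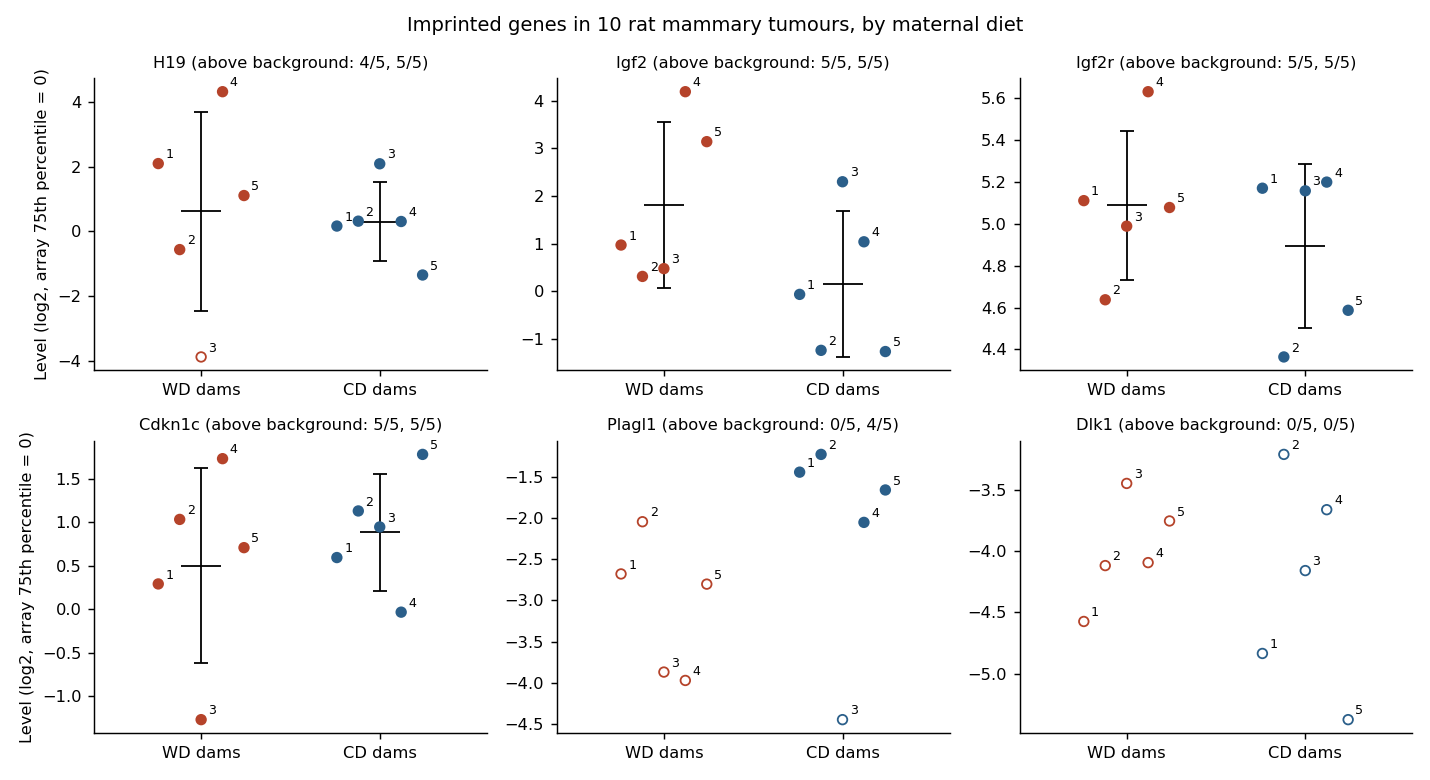
Level of 6 imprinted genes (log2, with the 75th percentile of the array at 0) in tumours of WD offspring (left) and CD offspring (right); numbers are replicate numbers, open circles are spots not well above background, and bars are the mean ± SD of 5 tumours for tested genes. H19 runs from -3.88 in WD3 to 4.31 in WD4. The groups overlap for H19, Igf2, Igf2r and Cdkn1c, and Plagl1 has filled points in CD only.

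None of the 4 tested members passed an adjusted p under 0.05 in the limma fit, as was true of all 16779 genes (0% called). At an unadjusted p under 0.05 the count was 0 of 4 members, where 15.5% of all genes fell under it (7.8% higher and 7.72% lower in WD). The count was 1 of 4, for Igf2, with slide as a block (limma, unadjusted p = 0.033) and without WD2 (0.0496) or CD3 (0.0246). The WD and CD tumours overlapped for all 4 members, and did not overlap for 3.65% of all genes. The median difference of the 4 members was 0.25, against 0.01 over all genes. These counts leave out the 4 members that were not tested.

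**Figure D2:**
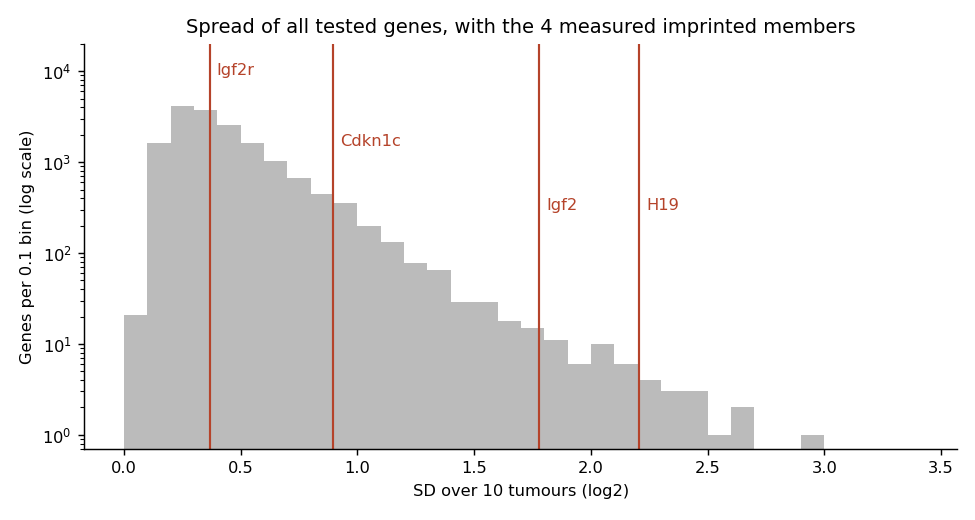
Number of tested genes (log scale) by their SD over 10 tumours (log2, bins of 0.1), with lines at the 4 tested members. Igf2r (0.37) lies near the peak on this scale, Cdkn1c (0.89) in the upper tail, and Igf2 (1.78) and H19 (2.21) far out in it.

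The 4 tested members gave 6 pairs, whose levels were correlated over the 10 tumours. Igf2 and Igf2r gave r = 0.82 (permutation p = 0.00401, adjusted over 6 pairs 0.0241) and Spearman rho = 0.70 (adjusted permutation p = 0.104). Without WD4 and WD5, the tumours farthest from the Igf2 median, r was 0.78, within the WD and CD groups it was 0.83 and 0.81, and with slide means removed it was 0.79. The call was lost with the normexp background correction (r = 0.49) and with the deposited series matrix (r = 0.66). It was also lost in the permutation test without WD4 (r = 0.71), CD2 (0.77), CD3 (0.82) or CD5 (0.78).

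H19 and Igf2 gave r = 0.66 (permutation p = 0.0353, adjusted 0.106) and rho = 0.68 (adjusted permutation p = 0.104). The pair therefore did not pass the adjusted threshold over all 10 tumours. WD4 was high for both genes, and WD3 was at the bottom for H19 while Igf2 was at 0.48 there. Without WD3 and WD4, the tumours farthest from the H19 median, r was 0.69. Within the WD and CD groups r was 0.75 and 0.83. With slide means removed r was 0.74 and with WD3 at its bound it was 0.76. Both of these passed after adjustment (permutation p = 0.0432 and 0.0327). The first p ignores the degrees of freedom that removing means takes.

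No other pair passed over all 10 tumours. H19 and Igf2r gave r = 0.56, but 0.77 without WD3, where the pair passed (adjusted permutation p = 0.0309), and 0.30 without WD4. H19 and Cdkn1c gave r = 0.57 but -0.54 without WD3 and WD4. Without WD3 alone r was 0.07 and without WD4 alone it was 0.44, so that relation rests mostly on WD3. In WD3 H19 was not well above background, while the Cdkn1c probe used here was. Igf2 and Cdkn1c gave r = 0.08 and Igf2r and Cdkn1c r = -0.11.

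Of the neighbouring genes, a few on either side of the domain were measured. Mrpl23, a mitochondrial ribosomal protein gene next to H19, had an SD of 0.19 and r = -0.31 with H19 and 0.06 with Igf2. Ascl2, a transcription factor gene that is imprinted in mouse, lies on the Igf2 side and had r = 0.53 with H19 and 0.84 with Igf2. Ctsd, which codes for the lysosomal protease cathepsin D, had r = 0.55 with H19 and 0.68 with Igf2. Tnni2, Syt8, Cd81 and Tssc4 were also measured. Their r was 0.17, -0.07, 0.41 and -0.16 with H19, and 0.45, 0.20, 0.10 and 0.31 with Igf2. These values are descriptions, each over the same 10 arrays.

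Among 2132 named genes with an SD of at least 0.5, the genes whose levels ran most like those of H19 were Cryab (r = 0.96), Clic6 (0.94), Vtcn1 (0.93), Fgf1 (0.91), St6galnac3 (0.91) and Camk2n1 (0.90). Cryab codes for a small heat shock chaperone, Vtcn1 for a ligand that restrains T cells, Fgf1 for a growth factor and Camk2n1 for an inhibitor of a calcium-dependent kinase. All 6 were highest in WD4 and lowest in WD3. In WD3, H19, Clic6 and St6galnac3 were not well above background. Fgf1 was well above background on 4 of 5 WD arrays, and its lowest level was -1.85, in WD3. Its r may therefore also rest in part on a reading near background. The WD3 reading of H19, not its bound, entered every r with H19 here, so these values and ranks rest in part on it. Cryab, Vtcn1 and Camk2n1 were well above background in all 10 tumours, and Clic6, Fgf1 and St6galnac3 in 9, 9 and 8. Running most against H19 were Ftcd (-0.95), Ripply3 (-0.92) and Pkmyt1 (-0.91), the last a kinase that holds back Cdk1. Ripply3 was well above background in 5 of 10 tumours, so its r rests in part on readings near background. Igf2 itself had 128 genes more like H19 than it was.

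For Igf2 the closest profiles were Slc39a6 (r = 0.95), a zinc transporter, Nrp1 (0.89), Slc6a14 (0.89), Bcl3 (0.89), the complement gene C3 (0.88) and P2ry2 (0.88). The opposite profiles were Rbm3 (-0.92), Cdc20 (-0.91) and Abcb10 (-0.90), of which Cdc20 activates the complex that ends mitosis. Abcb10 was well above background in 7 and P2ry2 in 9 of 10 tumours, and the other 7 in all 10. Igf2r had 39 genes above it in likeness to Igf2, and H19 had 178. These genes were picked for their likeness among many, so no p is given.

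Marker lists of cell types and of the cell cycle were set beside H19 and Igf2. Of 20 relations (8 lists with H19 and with Igf2, and array brightness with the 4 members), 1 passed after adjustment. Igf2 ran against the mean level of 5 measured cell cycle genes (Ccnb1, Cdk1, Mcm2, Mcm7 and Aurka), with r = -0.84 (permutation p = 0.00226, adjusted 0.0452) and rho = -0.88 (adjusted permutation p = 0.029). Without WD4 and WD5 r was -0.84, and within the WD and CD groups it was -0.71 and -0.89. With slide means removed r was -0.92, and leaving out 1 tumour at a time gave r between -0.92 and -0.72. Of the 5 cell cycle genes, 2 were well above background on all 10 arrays. Ccnb1, Mcm2 and Aurka were not well above background in WD4, so the relation rests in part on readings near background. The call lay close to the threshold. With all relations computed again under each of 16 alternatives, it passed after adjustment in 6 and not in the other 10. It was lost in the permutation test with normexp (adjusted p = 0.174), the series matrix (0.0608) or diet means removed (0.0859), and without WD2 (0.101), WD4 (0.442) or any 1 of the CD tumours (0.0714 to 0.197). H19 gave r = -0.69 with the same list (adjusted permutation p = 0.148). This pair passed in 2 of the 16 alternatives, without WD3 (r = -0.94, adjusted permutation p = 0.005) and with brightness removed (-0.82, 0.0326). With T cell and macrophage markers H19 gave r = 0.03 and 0.37. Without WD3, where H19 was not well above background, these were 0.88 and 0.85 (adjusted permutation p = 0.0129 and 0.0207). Neither passed in the other 15 alternatives. Basal markers (r = -0.58) passed only with brightness removed (r = -0.76).

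**Figure D3:**
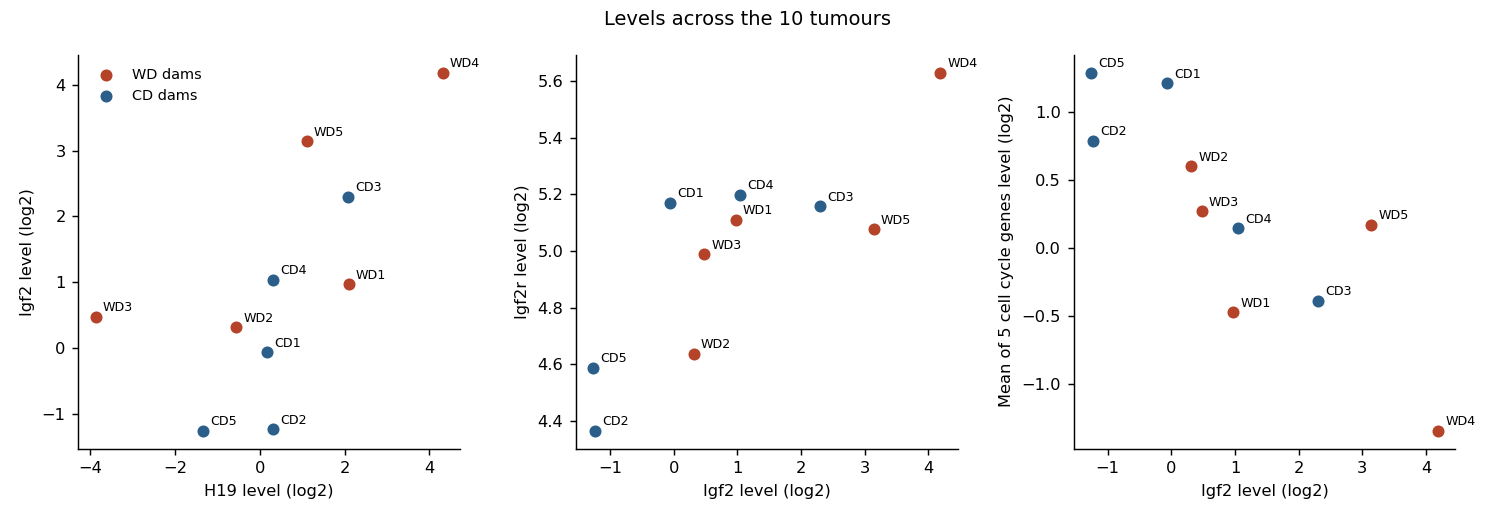
Levels (log2) in 10 tumours, WD in red and CD in blue, for H19 against Igf2 (left), Igf2 against Igf2r (middle) and Igf2 against the mean of 5 cell cycle genes (right). WD4 has the highest H19, Igf2 and Igf2r and the lowest cell cycle level. WD3 has the lowest H19 but not the lowest Igf2 or Igf2r. Ccnb1, Mcm2 and Aurka in WD4 and H19 in WD3 were not well above background.

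Igf2 also gave r = -0.76 with basal and myoepithelial markers and 0.69 with pericyte and smooth muscle markers, with adjusted permutation p of 0.116 and 0.148. Its r was -0.56 with luminal, 0.59 with macrophage, 0.51 with T cell, 0.21 with fibroblast and -0.50 with lactating alveolus markers. With slide means removed the luminal r was -0.92 and passed (adjusted permutation p = 0.0028, ignoring the degrees of freedom that removing means takes). The luminal relation did not pass in the other 15 alternatives, and its r ran from -0.92 to -0.11 over all 16. The pericyte relation passed in 1 of 16, without WD3 (r = 0.81, adjusted permutation p = 0.0346). For array brightness r was -0.01 with H19 and -0.41 with Igf2 (adjusted permutation p = 0.984 and 0.423). Within the WD group these were 0.50 and 0.57, and within the CD group -0.90 and -0.86, each over 5 tumours and with no test.

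Single markers of these lists were also compared between WD and CD in the limma fit, and none passed after adjustment. At an unadjusted p under 0.05, which 15.5% of all genes reached, the counts were as follows. All 4 measured T cell markers of 5 were higher in WD, with a mean level of 0.95 to 2.63 in WD tumours and 0.29 to 1.24 in CD tumours, and Cd2 was not measured. Of 5 measured cell cycle genes of 7, 2 were lower in WD (Mcm7 1.71-fold and Aurka, which was well above background on 3 of 5 WD and 5 of 5 CD arrays), with a mean level of -1.35 to 0.60 in WD tumours and -0.39 to 1.29 in CD tumours. Of 9 luminal markers 2 were lower (Krt19 and Krt8), and 1 of 5 was higher for macrophages (Laptm5) and for pericytes (Des). None of the measured basal (5), fibroblast (7), adipocyte (2), endothelial (2) or lactating alveolus (4) markers passed that level. The part of cell composition in the Igf2 values was not tested.

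The wider set of imprinted genes, 68 genes listed as imprinted in mouse, showed no diet difference that passed the test. Whether each is imprinted in rat mammary tumours was not measured. Of the 68, 46 had a probe and 28 were measured. None had an adjusted p under 0.05 in the limma fit, and 3 (10.7%) had an unadjusted p under 0.05, against 15.5% of all genes. Their median difference was 0.03, against 0.01 over all genes, and it was -0.02 with the series matrix and -0.22 with array median scaling, which moves the median of all genes to -0.24.

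Dio3, which inactivates thyroid hormone, had a fitted difference of 1.02 (unadjusted p = 0.0319, limma, adjusted 0.276), with 3 of 5 WD and 4 of 5 CD arrays well above background. Trappc9 had a fitted difference of -0.86 (limma, adjusted p = 0.282), with 2 of 5 WD and 4 of 5 CD arrays well above background, so the sizes of both differences rest in part on readings near background. Copg2, a subunit of the vesicle coat, was 1.32-fold lower in WD (limma, adjusted p = 0.308). Dcn, the matrix proteoglycan decorin, was 2.48-fold higher with an adjusted p of 0.409, Slc38a4, an amino acid transporter, was 1.75-fold higher (0.413) and Ascl2 was 1.35-fold higher (0.438).

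The widest spreads in this set belonged to Dlx5, a homeobox gene, with an SD of 1.58, to Dcn (1.47), Begain (1.11) and Nnat (0.90). Nnat ran against both H19 (r = -0.67) and Igf2 (-0.74), and Begain against Igf2 (-0.79). Dcn gave r = 0.18 with H19 and 0.45 with Igf2, and Dlx5 0.07 and -0.15. Begain was well above background on 3 of 5 WD and 4 of 5 CD arrays, and Dlx5 on 4 of 5 and 5 of 5. Neither was well above background in WD4, so the SD and r of both rest in part on readings near background.

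**Figure D4:**
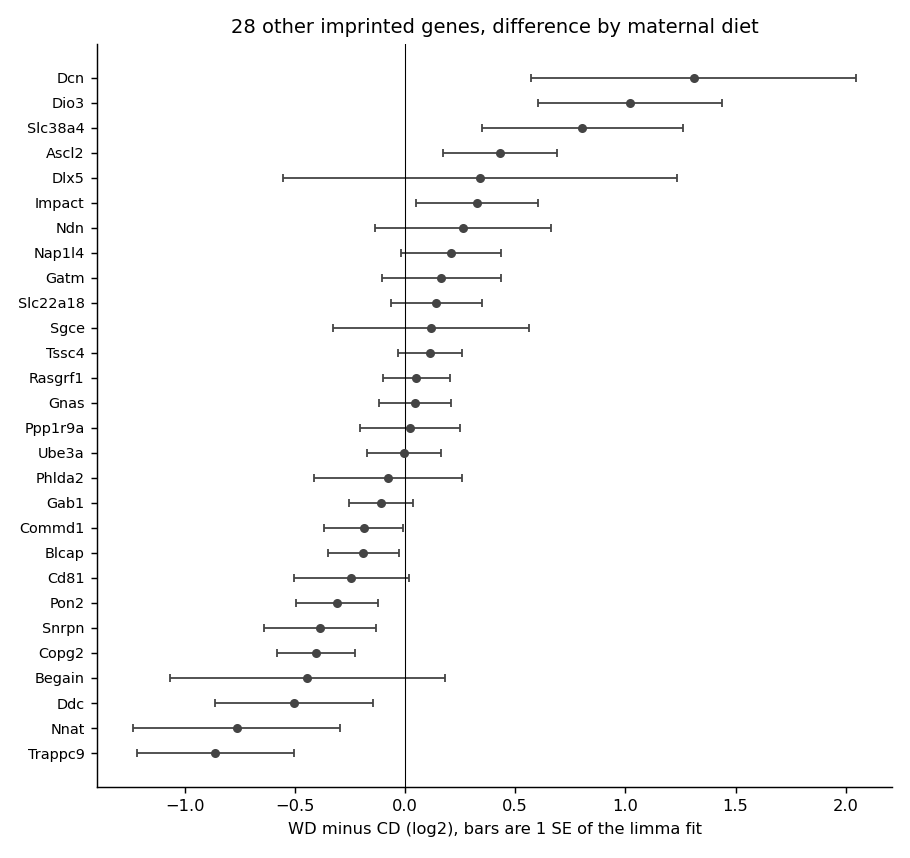
WD minus CD difference (log2) of 28 other imprinted genes, with bars of 1 SE of the limma fit on 5 tumours a group, ordered by size. Dcn (1.31), Dio3 (1.02) and Slc38a4 (0.80) lie highest and Trappc9 (-0.86) and Nnat (-0.76) lowest, and none passes the adjusted threshold.

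Of 23 genes of the IGF2 pathway, 19 were measured, with a median difference of 0.03 (-0.22 with array median scaling), and none passed after adjustment in the limma fit. At an unadjusted p under 0.05, 0 were higher in WD and 2 were lower (10.5% of the list, against 15.5% of all genes in both directions), both kinases that act below the IGF and insulin receptors. Akt1 had levels of 1.63, 0.96, 0.90, 0.89 and 1.62 in WD tumours, against 2.07, 2.07, 1.22, 2.09 and 2.02 in CD tumours, and was 1.62-fold lower (limma, adjusted p = 0.215). Only CD3 among the CD tumours fell within the WD range. Akt2 had a fitted difference of -0.48 (limma, adjusted p = 0.285), with 2 of 5 WD and 5 of 5 CD arrays well above background, so its size rests in part on readings near background.

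Of 17 genes that set or keep imprints, 8 were measured, with a median difference of -0.19, and 1 (12.5%, against 15.5% of all genes) had an unadjusted p under 0.05. It was Mbd3, a subunit of a nucleosome remodelling complex, which was 1.62-fold lower in WD (limma, adjusted p = 0.205). Trim28, the corepressor recruited to imprinted control regions, was 1.29-fold lower (limma, adjusted p = 0.349).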

How the data were processed

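Arrays were read with Agilent Feature Extraction, version 11.5.1.1 per the file headers and 15.5 per the submitters' processing notes. Deposited with each array are spot intensity values (processed signal, background-subtracted per the file headers) and marks of 0 or 1 for spots well above background, outliers and saturation. The deposited series matrix holds log2 values, whose rows carry the row numbers of the array files (Spearman correlation with each array's own median signals was 1). Array coordinates are on another build than GRCr8, which gave gene names for 42.68% of probes and the printed sequences.

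Here the log2 processed signal minus the 75th percentile of each array was used, without outlier spots, with probe spots averaged and the brightest kept probe per gene. WD and CD were compared with limma 3.58.1 (R 4.3.3, lmFit and eBayes) and Benjamini-Hochberg adjustment over 16779 genes. Correlations used 100000 permutations (numpy 2.4.6). On simulated data of that size limma recovered 57% of 2-fold and 90% of 4-fold changes, with 8 false calls of 155. The changed genes were drawn at random, with independent noise at each gene's own SD. These shares therefore do not apply to genes as variable as H19 and Igf2. The planned mean-signal normexp was run on median signals, the column present. The number of arrays limits the precision.

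The members, lists and tests were chosen with earlier results of these data known. Beside the members, the genes named were the 6 of smallest p and 4 of largest SD among other imprinted genes, the 2 of smallest p in each other list, and for H19 and Igf2 the 6 most and 3 least alike; neighbours of the domain and the remaining markers were added for their place or list.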

Additional observations from a re-analysis of the deposited data

Results flagged for a closer look

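Groups of 5 tumours were searched for a single tumour far from the rest of its group, over 18 groups (9 member probes, WD and CD), and 3 stood apart by Dixon's criterion. Chance flags about 1 in 20 groups. A pair of the 4 Cdkn1c probes had WD3 far below the other WD tumours, at -2.68 for A_44_P374618 and -4.01 for A_44_P374620, on spots not well above background. Plagl1 had CD3 at -4.45, far below the other CD tumours, also on a spot not well above background. H19 in WD3 was not among them.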

How the results depend on the processing

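No tested gene passed an adjusted p under 0.05 in limma under any alternative, members included. The number of genes with an unadjusted p under 0.05 was 2603 (1308 higher and 1295 lower in WD), but 496 (348 and 148) with normexp, 7055 (5997 and 1058) with no filter on dim probes, 963 (464 and 499) with array brightness as a covariate, and 1853 to 3283 with 1 tumour left out. Array median scaling gave 331 higher and 3309 lower, and the series matrix 881 and 1392. The H19 difference was -0.06 without WD1, -0.61 without WD4 and -0.10 without CD5 (range -0.61 to 1.43), Igf2r was -0.058 with array median scaling, and Cdkn1c was 0.057 without WD3 (range -0.69 to 0.057). H19 was not tested where all 10 arrays had to be well above background. The number of member pairs past the threshold was 1, and 2 with slide means, diet means or brightness removed or with WD3 at its bound (an alternative chosen after seeing the data, as were those for the marker lists), and 0 to 3 with 1 tumour left out. H19 with Igf2 passed with normexp (r = 0.78), series matrix (0.80), slide means removed (0.74), diet means removed (0.72), brightness removed (0.72) and WD3 at its bound (0.76), with r from 0.45 to 0.83 when 1 tumour was left out, passing without WD3. Igf2 with Igf2r lost its call with normexp, series matrix and without WD4, CD2, CD3 or CD5 (r from 0.71 to 0.89). Igf2 with Cdkn1c turned to -0.26 without WD4 (range -0.26 to 0.33), and Igf2r with Cdkn1c to 0.041 with normexp and 0.062 without CD5 (range -0.50 to 0.062). The median differences of the T cell, macrophage, fibroblast, pericyte, luminal, basal and cell cycle lists kept their sign under normexp, quantile, array median and series matrix values, also tried after seeing the data. By SD the members ranked 13 to 44 (H19), 32 to 98 (Igf2), 968 to 27367 (Igf2r) and 645 to 3524 (Cdkn1c) under normexp, quantile, series matrix and no filter. With no filter the ranks, and the count of 7055 above, were among 36061 genes, against 16779 in the main fit. The causes were not tested.

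Replicate numbers did not pair the tumours: deviations of same-numbered tumours correlated at -0.02 to 0.16, and 0 of 5 WD tumours matched its own number best. With the replicate block 0 genes passed after adjustment and 2676 had an unadjusted p under 0.05, and the Igf2 difference stayed at 1.66 (adjusted p = 0.348, limma).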
